A study of Rattus norvegicus with 6 samples.

Results

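Among 14217 genes measured in dissociated spinal cord cultures from newborn rats, 150 genes were chosen because they read low in control 3 and CNT 3 alike, the replicate-3 cultures on a control substrate and on carbon nanotubes. Where a gene had several probe sets, the one brightest on average was read. The mean of control 3 and CNT 3 was set against the mean of control 2, CNT 1 and CNT 2, and a gene was kept where the higher of the first pair lay below the lowest of the other 3. Such separation was met by 4299 genes, or 30.2% of all genes measured, and the 150 with the most negative difference were taken. Control 1 took no part in the choice.

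The cultures came from Sprague-Dawley rats of postnatal days 1 to 4, as the sample labels have it. The strain named in the methods is Wistar. The cultures grew for 8 days in vitro on polyornithine-coated glass (control, 3 cultures) or on a layer of multi-walled carbon nanotubes (CNT, 3 cultures). By the methods, the medium on both substrates held horse serum and a low concentration of nerve growth factor. RNA of each culture (100 ng) was amplified and hybridized to an array of its own. The labels call the arrays of a substrate biological replicates, and the methods state that each came from a different culture series. Neither says whether control 3 and CNT 3 belong to the same series, and this was not tested.

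A dissociated spinal culture holds several lineages at once. Oligodendrocytes descend from precursors that carry the transcription factors Olig1 and Sox10, switch on the myelin regulatory factor Myrf as they differentiate, and then make the lipids and proteins of the myelin sheath. Astrocytes supply neurons with metabolites and take up transmitter, and microglia are the resident macrophages of the cord. The labels speak of neurons, yet glial genes were bright in every culture, the lowest values being 13.70 log2 for the astrocyte gene Gfap and 14.22 log2 for the myelin gene Mbp. In RNA of a whole culture, fewer cells of a type and less RNA per cell cannot be told apart.

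Oligodendrocyte genes were the largest listed group among the members. Of the 51 measured genes of a list for differentiating and myelinating oligodendrocytes, 17 were members, and of 17 measured genes for oligodendrocyte precursors, 4 were. Members made up 30.9% of both lists and 1.06% of all genes. Over these 68 genes, 50 were separated with both replicate-3 cultures low (73.5%, against 30.2% of all genes). Another 3 were separated the other way, and 62 of the 68 had a difference below 0. The median difference was -0.62 log2 over the lists and -0.05 over all genes. These counts come from the contrast that chose the members and are given as a description.

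Over the 150 members, the difference that chose them ran from -3.01 log2, an 8.04-fold lower mean in the replicate-3 cultures, to -1.06 log2, a 2.09-fold lower mean. Its median was -1.26 log2 (2.39-fold), and 20 members were at least 3-fold lower. The last members taken were Sppl2b (-1.07), Ttll7 (-1.07) and Arhgap4 (-1.06), and the next genes, left outside, were Acap3, Llgl1 and Rlig1 (-1.06 each), so that no gap marks the edge of the set. The members were neither dim nor bright as a set. Their mean levels had a median of 9.70 log2, as did those of all genes, and ran from 5.61 to 13.01. Of the 150, 28 stood on one of the 27 gene lists, 57 more were put in groups by known function after their values were seen, and 65 were in neither.

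**Figure D1:**
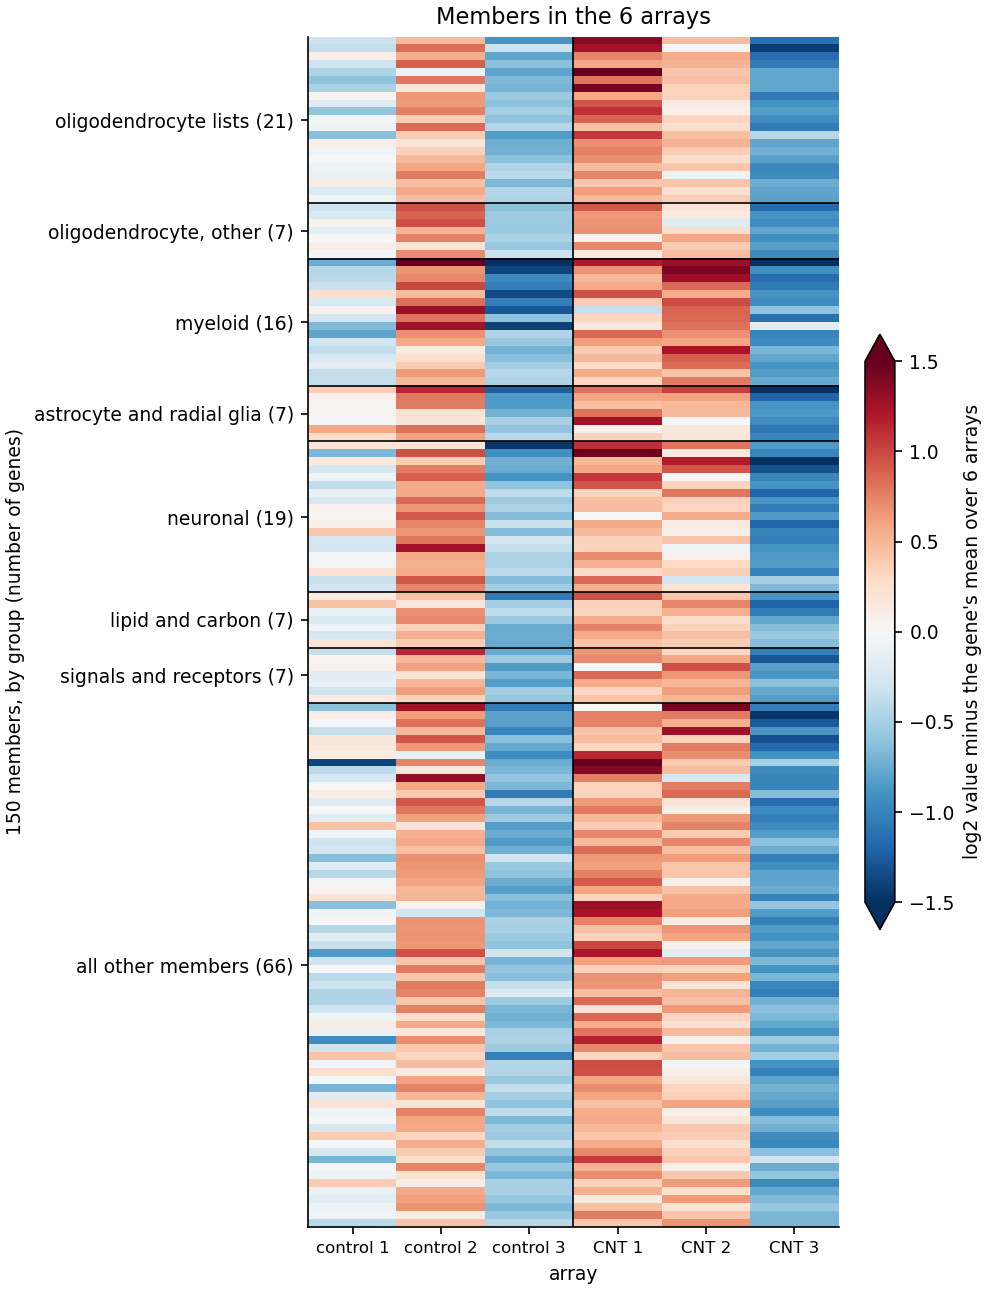
Each row is 1 of the 150 members and each column 1 array, and the colour gives the log2 value minus the gene's mean over the 6 arrays (red higher, blue lower, colours end at 1.5). Rows are grouped by cell type or function, with the number of genes in brackets; Hoxd1, of the Hox list, is among the other members. Control 3 and CNT 3 are blue and control 2, CNT 1 and CNT 2 mostly red, as the choice requires, while control 1, which the choice did not use, is pale.

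Taken as the mean over members of each gene's distance from its own mean, control 1, 2 and 3 stood at -0.15, 0.59 and -0.65 log2 and CNT 1, 2 and 3 at 0.64, 0.46 and -0.89. CNT 3 was the lowest array for 117 members, control 3 for 31 and control 1 for 2. The highest array was CNT 1 for 62 members, control 2 for 57 and CNT 2 for 31, so the members did not share 1 highest culture.

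Values are listed for replicates 1, 2 and 3 of each substrate, in log2 expression. Mog, a glycoprotein of the outer surface of myelin, read 10.06, 10.85 and 9.48 in the control cultures and 11.73, 10.83 and 9.24 in the CNT cultures. Mal, a proteolipid of compact myelin, read 9.30, 9.67 and 8.96 on control and 11.45, 10.17 and 8.98 on CNT. Both genes peaked in CNT 1, where Mal stood 1.28 log2 above the next array. Hapln2, a link protein of the nodal matrix, read 9.44, 10.63 and 9.47 on control and 11.04, 9.82 and 8.38 on CNT, so that control 1 and control 3 were nearly level. Ermn, a cytoskeletal protein of myelinating processes, read 8.31, 8.96 and 8.08 on control and 10.22, 9.12 and 8.0 on CNT, and again stood apart in CNT 1. Klk6, a serine protease made by mature oligodendrocytes, read 9.09, 10.49 and 9.03 on control and 10.50, 10.14 and 8.92 on CNT. For Klk6 the 3 lower arrays, control 1 among them, lay within 0.16 log2 of each other.

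S1pr5, a sphingosine 1-phosphate receptor of the oligodendrocyte lineage, read 10.08, 10.91 and 9.66 on control and 11.21, 10.40 and 9.37 on CNT. The other members of this list had differences from -1.32 to -1.07 log2. They were the gap junction protein Gjb1, the receptor Gpr37, the cell adhesion protein Nfasc, the myelin proteins Opalin, Mobp, Pllp, Tspan2 and Mag, the homeobox factor Nkx6-2, the myelin regulatory factor Myrf and Fa2h, which makes the hydroxylated fatty acids of myelin lipids. Nfasc is also made by neurons. The most abundant myelin messages moved less. Mbp, the basic protein of compact myelin, read 14.40, 14.56 and 14.34 on control and 14.72, 14.47 and 14.22 on CNT, a difference of -0.30 log2. Cnp differed by -0.59 and Cldn11 by -0.24 log2. The lowest of these values was 13.42 log2, and whether values this high on the scale follow the RNA in proportion was not tested.

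Olig1, a basic helix-loop-helix factor of the lineage, read 12.87, 13.47 and 12.27 on control and 13.40, 13.17 and 11.76 on CNT. Sox10, which drives the expression of myelin genes, read 11.72, 12.06 and 10.93 on control and 12.02, 12.03 and 10.86 on CNT. For Sox10 the 4 cultures other than the replicate-3 ones lay within 0.34 log2 of each other. Nkx2-2, a homeobox factor of precursors about to differentiate, read 10.86, 12.07 and 10.55 on control and 11.76, 11.68 and 10.13 on CNT. C1ql1, a secreted C1q-like protein, read 10.05, 10.49 and 9.16 on control and 10.68, 10.50 and 8.81 on CNT. The precursor list did not move as 1 block. Pdgfra, the receptor for the growth factor that precursors depend on and also a fibroblast gene, read 13.22, 13.11 and 12.92 on control and 12.91, 12.97 and 13.60 on CNT, and was highest in CNT 3. Bcas1, a marker of newly formed oligodendrocytes, differed by -0.63 log2 and Vcan, a matrix proteoglycan, by -0.17.

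**Figure D2:**
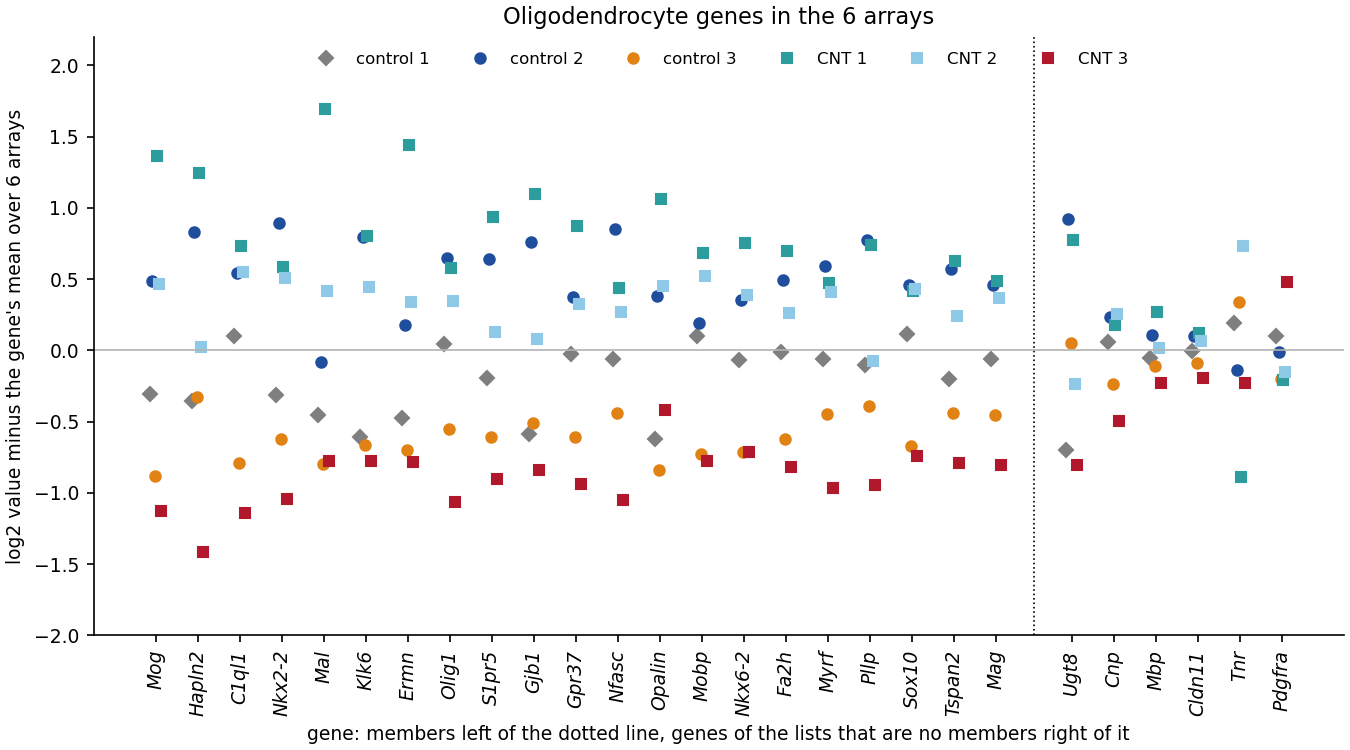
Each point is 1 array, placed at its log2 value minus the gene's mean over the 6 arrays, for the 21 oligodendrocyte-list members and for 6 genes of the same lists that are no members. Circles and the diamond are control cultures and squares CNT cultures. CNT 1 is the top point for 15 of the 21 members, and control 1 (diamond) lies below all 3 higher arrays in every one of them, while Mbp and Cldn11 span 0.50 and 0.31 log2.

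Of the 21 oligodendrocyte-list members, CNT 1 was highest in 15, control 2 in 6 and CNT 2 in none. Control 1 lay below the lowest of the 3 higher arrays in all 21 and above both replicate-3 cultures in 18. The exceptions were Hapln2, Gjb1 and Opalin, where it lay between control 3 and CNT 3. A further 7 members have known roles in the lineage outside the lists, and were grouped after their values were seen. They were Sox6, Myt1 and Prox1, transcription factors of precursors, Bcan, a proteoglycan of precursors and astrocytes, Abca2, a lipid transporter, and the receptor kinases Tyro3 and Ddr1. Bcan had the most negative difference of these at -1.59 log2, with values of 11.33, 12.59 and 11.02 on control and 12.57, 11.84 and 10.47 on CNT. No gene of cholesterol synthesis, which myelin formation draws on, was a member. Members were 1.06% of all genes, so their absence from a list of 20 is no result about it. Over 20 such genes the median difference was -0.24 log2, and control 2 was the highest array for 15. Of the 20, 11 were separated with the replicate-3 cultures low (55%, against 30.2% of all genes).

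Promoter sequence was read for the oligodendrocyte members from RefSeq (build GRCr8), because the SOX factor Sox10 is itself a member. Of 150 members, 115 matched a promoter entry, 15 of them on the oligodendrocyte lists. The letters ACAAAG, the core bound by SOX proteins, were searched on both strands in the 250 bases before the start. They stood in 5 of the 15 oligodendrocyte members (33.3%), in 19 of the 115 members (16.5%) and in 1464 of 11700 promoters of measured genes (12.5%). Genes of the oligodendrocyte lists that are no members are not set beside these, so the share cannot be called particular to the members. The 5 were Mobp, Opalin, Hapln2, Klk6 and Mag. Of these, 3 are shown, with the match in capitals (CTTTGT where it lies on the other strand), as the promoter with most matches, the only other with more than 1, and that of the myelin-associated glycoprotein. Mobp lies at chr8:128746982-128747231 (plus strand), Opalin at chr1:249858191-249858440 (minus strand) and Mag at chr1:95291045-95291294 (minus strand), each printed 5′ to 3′ along its gene.
Mobp: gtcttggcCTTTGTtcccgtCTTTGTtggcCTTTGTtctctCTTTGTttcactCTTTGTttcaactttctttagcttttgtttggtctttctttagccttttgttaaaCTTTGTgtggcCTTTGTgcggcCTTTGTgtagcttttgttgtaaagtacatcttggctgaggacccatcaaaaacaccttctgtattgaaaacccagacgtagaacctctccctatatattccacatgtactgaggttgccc
Opalin: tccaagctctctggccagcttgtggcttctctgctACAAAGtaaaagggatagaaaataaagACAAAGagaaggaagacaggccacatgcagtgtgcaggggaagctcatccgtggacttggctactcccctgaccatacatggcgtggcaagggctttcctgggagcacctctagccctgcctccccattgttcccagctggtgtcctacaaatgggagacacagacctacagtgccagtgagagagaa
Mag: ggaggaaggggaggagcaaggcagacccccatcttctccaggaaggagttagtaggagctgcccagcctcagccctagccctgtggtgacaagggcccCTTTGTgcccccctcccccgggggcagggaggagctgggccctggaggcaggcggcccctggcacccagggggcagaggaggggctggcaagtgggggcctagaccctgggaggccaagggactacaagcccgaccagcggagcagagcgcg
The Mobp window holds 8 copies, Opalin 2 and Mag 1. Mobp, a basic protein of compact myelin, read 12.60, 12.69 and 11.77 on control and 13.18, 13.02 and 11.72 on CNT. Opalin, a membrane glycoprotein of oligodendrocytes, read 5.92, 6.92 and 5.70 on control and 7.60, 6.99 and 6.12 on CNT. Mag, which holds the myelin sheath to the axon, read 12.38, 12.90 and 11.99 on control and 12.93, 12.81 and 11.64 on CNT. Control 1 was close to control 2 for Mobp, between control 2 and control 3 for Mag, and below CNT 3 for Opalin. A match of letters is a description of the sequence and no site of binding was measured here. Of 9 motifs searched, the E-box CAGGTG stood in 20.9% of member promoters and 15.8% of all, CCAAT in 34.8% and 35.1%, and TATAAA in 6.09% and 8.06%. The rarer motifs were too few to compare. The RFX letters GTTGCCA (3.36% of all promoters), the CRE letters TGACGTCA (2.64%) and the nuclear factor I motif (0.0598%) were in no member's window, and the ISRE core (2.66%) and the sterol element TCACNCCAC (0.974%) were each in 1.

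Fcnb, a ficolin of monocytes and macrophages that binds sugars on microbes, had the most negative difference of all members. It read 7.41, 9.73 and 6.55 in the control cultures and 9.35, 9.44 and 6.45 in the CNT cultures. Control 1 lay closer to the replicate-3 cultures than to the other 3. Gpr84, a receptor for medium-chain fatty acids induced in activated microglia, read 9.27, 10.36 and 8.32 on control and 10.37, 11.11 and 8.78 on CNT. Slc2a5, a fructose transporter that marks microglia in the brain, read 8.72, 9.84 and 8.18 on control and 9.61, 10.40 and 7.98 on CNT. Csf3r, the receptor for granulocyte colony-stimulating factor, read 8.01, 9.35 and 7.31 on control and 8.92, 9.20 and 7.29 on CNT. In all 4 of these genes control 1 lay between the replicate-3 cultures and the other 3.

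Irf8, a transcription factor that microglia need, read 10.45, 11.92 and 10.79 on control and 12.10, 11.92 and 10.25 on CNT. Cx3cr1, the fractalkine receptor of microglia, read 7.71, 8.70 and 7.64 on control and 8.62, 8.49 and 7.23 on CNT. Cd8a, which rat macrophages and activated microglia can carry as T cells do, read 10.07, 10.29 and 8.48 on control and 10.77, 10.37 and 8.93 on CNT, and its partner Cd8b was also a member (-1.35 log2). After this was seen, 8 genes of T cells were looked at, and their differences ran from -0.64 (Cd4, which macrophages also make) to 0.32 log2 (Cd5), with a median of -0.155. Of these 8, 3 were separated with both replicate-3 cultures low (Cd3e, Cd3g and Cd247, from -0.25 to -0.11 log2), against 30.2% of all genes. The T cell receptor subunit Cd3e read 6.57, 6.94 and 6.69 on control and 7.0, 6.93 and 6.72 on CNT. Of 7 granulocyte genes, Lcn2, which astrocytes also make, was alone in being separated low (-0.63), and S100a8 and S100a9 read 4.48 to 5.32 log2 in every array.

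The remaining members of this group were the adaptor Tifab, the chemokine Cxcl9, the cytokine Il16, the protease Ctse, the chitinase-like protein Chi3l1, which astrocytes also make, and the signalling proteins Abi3, Fgd2 and Pik3r6. Tifab read 9.0, 10.07 and 8.22 on control and 9.63, 10.22 and 8.30 on CNT. Chi3l1 read 10.08, 11.33 and 8.76 on control and 9.69, 10.90 and 9.43 on CNT, so that control 1 stood above CNT 1. With Irf8 and Cx3cr1 the group counts 16 members. CNT 2 was the highest array for 8 of the 16, control 2 for 5 and CNT 1 for 3, where CNT 1 had led in the oligodendrocyte members. On a list of 25 measured microglia and macrophage genes, 2 were members (8%, against 1.06% of all genes). The median difference of the list was -0.13 log2. Of the 25, 8 were separated low (32%), near the 30.2% of all genes, and none was separated high. Csf1r, the receptor that microglia depend on for survival, had a difference of -0.89 log2, with values of 12.10, 12.78 and 12.21 on control and 12.83, 13.09 and 11.81 on CNT. Aif1, a calcium-binding marker of microglia, differed by -0.25, Itgam by -0.04 and the pan-leukocyte gene Ptprc by 0.15 log2. The mean of the list lay lowest in control 1, at -0.49 log2 from the genes' own means, and at -0.16 and 0.01 in CNT 3 and control 3.

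Cxcl9, a chemokine induced by interferon gamma, went against the interferon response list. It read 8.07, 9.99 and 7.33 on control and 8.89, 9.54 and 8.56 on CNT, and was highest in control 2. Over the 25 measured genes of the interferon list the mean was lowest in control 2 (-1.79 log2) and highest in CNT 3 (1.32), the median difference was 0.96 log2, and none was a member or separated low.

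**Figure D3:**
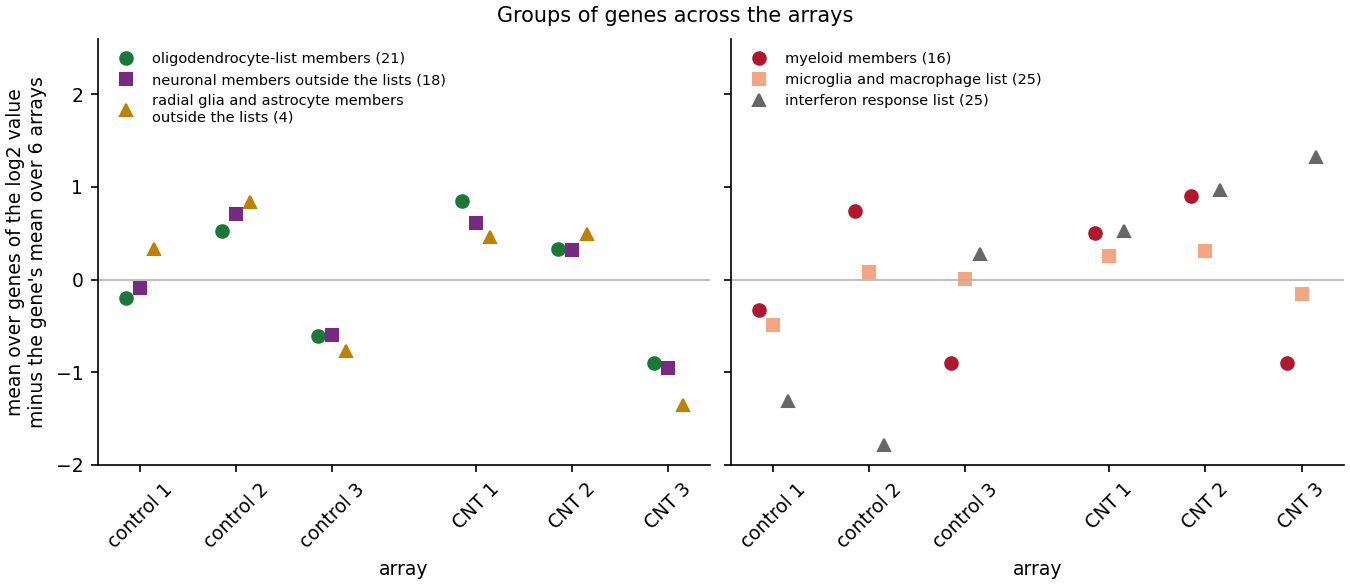
Each point is the mean, over the genes of a group, of the log2 value minus the gene's own mean over the 6 arrays, with the number of genes in brackets; the groups of members were chosen by the values in control 2, control 3 and all CNT arrays. Myeloid members (circles, right) fall to -0.90 in both replicate-3 cultures, where the whole microglia and macrophage list stays at 0.01 and -0.16. The interferon list is lowest in control 2 and highest in CNT 3.

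Rlbp1, a retinaldehyde-binding protein of radial glia and Müller cells, was second among the members. It read 9.58, 10.34 and 7.96 on control and 10.01, 10.22 and 7.06 on CNT, and control 1 lay 0.77 of the way from the lower to the higher arrays. On the astrocyte list stood 3 members. Acsbg1, which activates long-chain fatty acids, read 10.75, 11.51 and 9.88 on control and 11.18, 11.23 and 9.85 on CNT. Agt, angiotensinogen, read 10.06, 10.25 and 9.31 on control and 10.83, 10.51 and 9.16 on CNT. Ntsr2, a neurotensin receptor, read 9.25, 9.45 and 8.78 on control and 10.53, 9.26 and 8.34 on CNT, with CNT 1 standing 1.07 log2 above the next array. Over the 29 measured astrocyte genes, 17 were separated low (58.6%, against 30.2% of all genes) and 1 high. Of the 29, 27 had a difference below 0, and the median was -0.35 log2.

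The structural protein Gfap differed by -0.57 log2, with values of 14.26, 14.35 and 13.87 on control and 14.38, 14.33 and 13.70 on CNT. The gap junction protein Gja1 (0.06) and the radial glia protein Fabp7 (-0.06) stayed level. Outside the list, Sox3, a factor of neural progenitors, had a difference of -1.69, the retinoic acid enzyme Aldh1a1 -1.18 and the receptor Gpr37l1 -1.07 log2. Sox3 read 8.33, 9.05 and 7.41 on control and 8.85, 8.87 and 7.06 on CNT. Aldh1a1 read 9.19, 9.43 and 8.03 on control and 8.67, 8.78 and 7.54 on CNT, with control 1 above both higher CNT cultures. With Rlbp1, these 4 had control 2 as their highest array and CNT 3 as their lowest.

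Dcx, a microtubule protein of migrating and newly formed neurons, was the only member among 29 measured genes of the neuron list. It read 8.25, 9.26 and 7.75 on control and 9.08, 9.44 and 7.19 on CNT, although its other probe set, near the floor of the array at a mean of 5.52, differed by only -0.18 log2 and was not separated. The list went both ways, with 11 genes separated low (37.9%, against 30.2% of all genes) and 10 separated high. Of all 14217 genes, 2735 were separated high. Snap25, a protein of the synaptic release machinery, was among the 150 genes highest in both replicate-3 cultures and read 8.31, 8.84 and 10.62 on control and 9.03, 9.06 and 10.53 on CNT. No gene of the lists for synaptic transmission (35 measured), spinal interneurons and transmitter peptides (26), motor neurons (10) or ganglion neurons (12) was a member. Members were 1.06% of all genes, so the lack of members among so few genes is no result about them. Genes separated low and high numbered 10 and 6, 5 and 11, 5 and 2, and 3 and 0 in these lists. The shares separated low were 28.6%, 19.2%, 50% and 25%, against 30.2% of all genes. The interneuron list had a median difference of 0.17 log2.

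Outside the lists, 18 members are best known from neurons, grouped so after their values were seen. Dscam, an adhesion molecule of dendrite spacing, read 7.57, 7.82 and 6.72 on control and 7.94, 8.63 and 5.94 on CNT. Rab3c, a small GTPase of secretory vesicles, read 6.78, 6.79 and 5.13 on control and 7.68, 7.39 and 5.73 on CNT. Camk2n1, an inhibitor of calcium/calmodulin kinase II, read 8.75, 10.37 and 8.50 on control and 10.89, 9.57 and 8.43 on CNT. Control 1 was level with control 2 for Rab3c and close to the replicate-3 cultures for Camk2n1. Aplp1, a homologue of the amyloid precursor protein, had a difference of -1.60 log2. The others ran from -1.36 (Jph3) to -1.08 (Nrxn2, a presynaptic adhesion protein) and included the adhesion molecules Cntn1 and Opcml, the secreted protein Nell2, the channels Asic2 and Cacna1h, the glutamate transporter Slc1a1 and the G protein subunit Gng3. Several of these, Cntn1 and Aplp1 among them, are also made by oligodendrocytes.

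A set of 7 members acts in lipid and carbon metabolism, from Slc5a11, an inositol transporter (-1.57), through the acyl-CoA enzymes Acot1 (-1.27) and Acsl6 (-1.18) and the pancreatic lipase gene Pnlip (-1.23) to Gpd1, the glycerol 3-phosphate dehydrogenase (-1.09 log2). Another 7 are signals or receptors, with the peptide Apln (-1.24) and its receptor Aplnr (-1.51) both present, besides the calcium-sensing receptor Casr (-1.60), the BMP antagonist Grem1 (-1.36) and the Hedgehog-binding protein Hhip (-1.35 log2). Apln read 9.86, 10.48 and 9.15 on control and 10.54, 10.48 and 9.36 on CNT. Aplnr read 9.22, 9.67 and 8.63 on control and 9.88, 9.76 and 7.89 on CNT. Ligand and receptor were thus both lowest in the replicate-3 cultures, although Apln was lower in control 3 and Aplnr in CNT 3. Hoxd1 was the 1 member among 22 measured Hox genes (4.55%, against 1.06% of all genes). It was the dimmest member, at a mean of 5.61 log2, and the median difference of the Hox list was -0.04 log2. Among members in no group, Fndc3c1 (-1.94), Fam89a (-1.85), B3gat2 (-1.74), which makes the HNK-1 carbohydrate, and the cadherin Cdhr1 (-1.67 log2) were within the first 20.

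**Figure D4:**
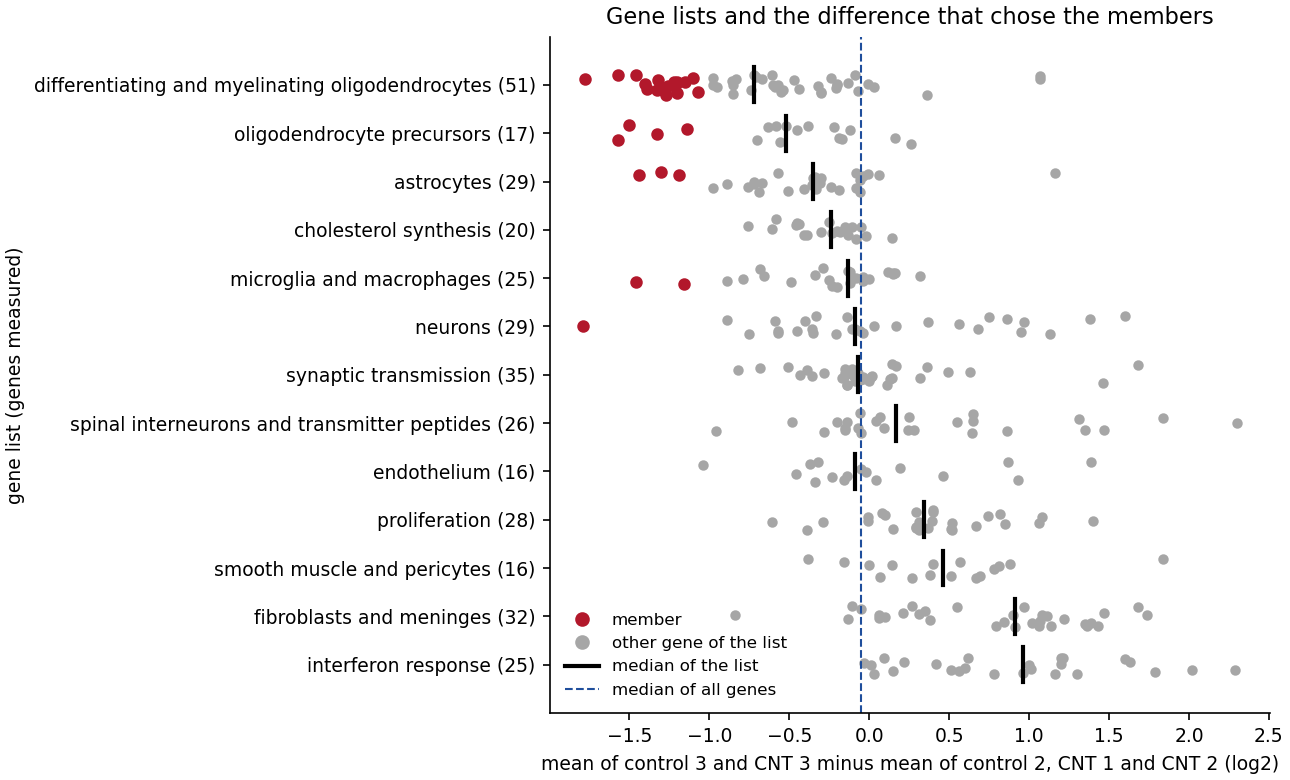
Each point is 1 measured gene of a list, at the mean of control 3 and CNT 3 minus the mean of control 2, CNT 1 and CNT 2 in log2; red points are members, black bars the medians of the lists and the dashed line the median of all genes (-0.05). Both oligodendrocyte lists and the astrocyte list lie left of the line, at medians of -0.72, -0.52 and -0.35, and the fibroblast and interferon lists right of it, at 0.91 and 0.96.

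Most of the genes highest in both replicate-3 cultures stood on no list. The 150 with the most positive difference among 2735 separated high were taken, or 1.06% of all genes. Of these, 4 stood on the fibroblast and meninges list and none on an oligodendrocyte, astrocyte or microglia list. At a share of 1.06%, their absence from lists this short is no result about those lists. The list for spinal interneurons and transmitter peptides held 3 of the 150. Synaptic transmission and amino acid and endoplasmic reticulum stress held 2 each, and the neuron list and several others 1 each. The fibroblast and meninges list had a median difference of 0.91 log2 over 32 genes, with 16 separated high and 1 low. The lists for smooth muscle and pericytes (0.46) and proliferation (0.34) also lay above 0. The fibroblast genes did not mirror the members culture by culture. Their mean distance from their own means was 0.65, 0.18 and 0.21 log2 in control 1, 2 and 3 and -0.19, -1.26 and 0.41 in CNT 1, 2 and 3, so that CNT 2 stood apart and control 1 was highest. The part of these lists in the members' values was not tested.

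Control 1 did not enter the choice, but the arrays it is set against did. It lay above both replicate-3 cultures in 137 of the 150 members (91.3%), between them in 11 and below both in 2. Over all genes this held for 46.4%, and over all 4299 separated genes for 74.4%. Since the members were chosen for low values in control 3 and CNT 3 and high values in the other 3, an array unrelated to either set would also tend to lie between them, so the share over all genes is no measure of what chance gives and these counts are a description. Control 1 also lay below the lowest of the 3 higher arrays in 135 members, and above all 5 other arrays in none. It was therefore in the gap between both sets of arrays for 122 members. Over the 4299 separated genes, control 1 was below the lowest higher array in 2447, above all 5 in 602 and in the gap in 1345. Over all 14217 genes these counts were 4696, 2865 and 1345. A scale was set from 0 at the mean of the replicate-3 cultures to 1 at the mean of the other 3. On it the median position of control 1 over the members was 0.49, with quartiles of 0.32 and 0.64.

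By group, the median position of control 1 was 0.49 for the oligodendrocyte-list members, 0.57 for the other oligodendrocyte members, 0.35 for the myeloid members, 0.55 for the neuronal members outside the list and for those of lipid and carbon metabolism, 0.48 for signals and receptors, and 0.84 for the 4 radial glia and astrocyte members outside the list. The groups outside the lists were formed after their values were seen, and differences between groups were not tested. Farthest above the higher arrays' mean were Aldh1a1 (0.23 log2 above), Rtkn (0.06), Fam181b (0.03) and Rnf180 (0.03). Farthest below it were Gosr1 (-2.24), Fcnb (-2.09), Ranbp1 (-1.57) and Camk2n1 (-1.53). In Gosr1, a Golgi SNARE, control 1 was the lowest of all arrays, with 9.58, 11.69 and 10.21 on control and 12.45, 11.34 and 10.45 on CNT. Ranbp1, a regulator of nuclear transport, was the other member with control 1 below both replicate-3 cultures.

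**Figure D5:**
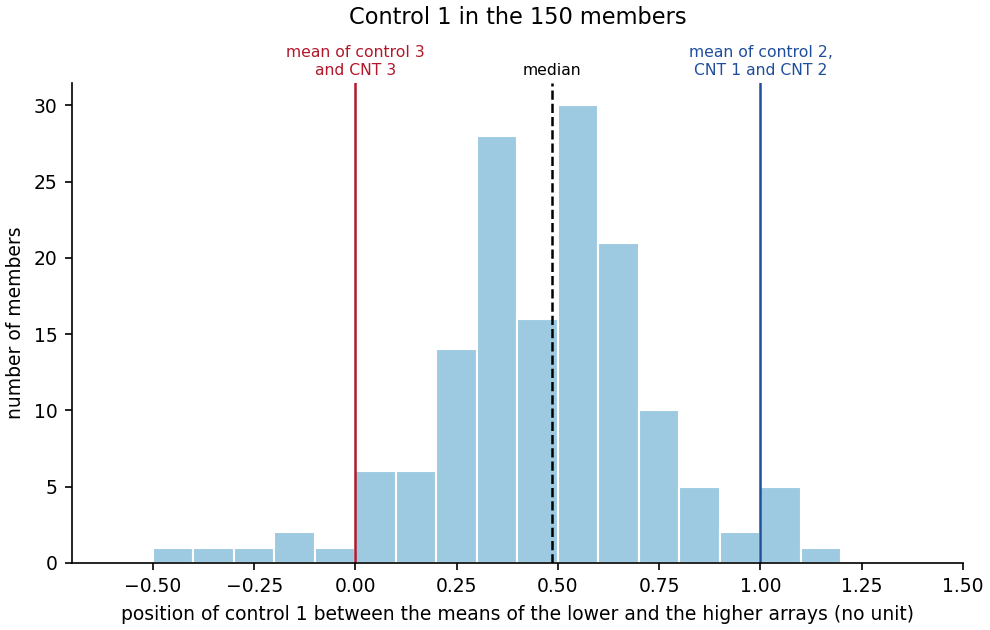
The histogram counts the 150 members by where control 1 lay between the mean of control 3 and CNT 3 (0, red line) and the mean of control 2, CNT 1 and CNT 2 (1, blue line). Most members lie between both lines, and the median (dashed) is 0.49.

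Probe sets that were not chosen give a further reading of the same RNA. Among the members, 53 genes had 74 other probe sets, of which 57 had both replicate-3 arrays below the other 3, against 26.1% of 6609 other probe sets over all genes. The median difference of these 74 was -0.55 log2, against -0.061. For Nfasc all 4 other probe sets (-0.49 to -1.92 log2) and for Mobp both others (-1.48 and -1.95) were separated. In 8 probe sets the difference was above 0. The largest were 2 probe sets of Gosr1 (0.28 and 0.24), and the others, Tmem200c (0.10), C8h11orf54 (0.06), Fam53b (0.03), Prox1, Phactr3 and Nrxn2 (0.01 each), were at most 0.10 log2 above 0.

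As a measure of RNA integrity, the ends of beta-actin and of GAPDH were compared. Between the 3′ and the 5′ end of beta-actin, the signal differed by 2.2, 0.62 and 0.66 log2 on control and by 0.92, 2.2 and 1.72 on CNT. For GAPDH it differed by 0.82, 0.18 and 0.22 log2 on control and by 0.22, 0.59 and 0.46 on CNT. Control 3 read close to control 2 in both genes, and CNT 3 lay between CNT 1 and CNT 2. The part of RNA integrity in the members' values was not tested.

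CNT and control cultures were then compared for the members. The choice placed 1 control and 2 CNT arrays on the higher side and 1 of each on the lower, which leans the means towards CNT and widens the spread within both groups. No member differed between CNT and control at a limma p-value adjusted over all genes under 0.05, and none did in all genes (0%). At an unadjusted p under 0.05, 0 members were higher and 0 lower on CNT, where 342 of all genes (2.41%) were higher and 101 (0.71%) lower. The median CNT minus control difference over members was 0.11 log2, with 105 above and 45 below 0.

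The most positive differences were those of Gosr1 (0.92 ± 0.69 log2, SE), Mal (0.89 ± 0.60), Efhd1 (0.86 ± 0.49), Gpr84 (0.77 ± 0.73) and the respiratory chain subunit Cox5a (0.76 ± 0.42). The most negative were those of Aldh1a1 (-0.55 ± 0.48), Asic2 (-0.42 ± 0.52), the nuclear protein Anp32a (-0.34 ± 0.60), Cntn1 (-0.33 ± 0.50) and Gpr37l1 (-0.31 ± 0.42). For Mal the 3 control cultures averaged 9.31 ± 0.36 and the 3 CNT cultures 10.20 ± 1.24 log2 (SD), and the groups overlapped. The difference of Mal was 0.27 log2 without CNT 1 and 1.5 without CNT 3, and those of the other 9 genes also moved with single arrays. The adjusted limma p-value of each of the 150 members was 0.999.

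Same-numbered cultures set side by side gave no common direction. CNT 1 lay above control 1 in 142 members, by a median of 0.76 log2. CNT 2 lay below control 2 in 92 of 150 (median difference -0.11 log2), and CNT 3 below control 3 in 118 (median difference -0.26 log2). Over all genes, the CNT array was the higher one for 52.7%, 57.4% and 57.4% of genes in these 3 comparisons. Over the 4299 separated genes it was the higher one for 71.7%, 50.1% and 39.4%. The choice made CNT 1 high in every member and left control 1 free, so the first count follows in part from the choice. The members thus spanned more within a substrate, where control 2 and control 3 differed by 1.24 log2 on average and CNT 1 and CNT 3 by 1.53, than between the means of the substrates. As the choice sets the distances within a substrate, this is a description of the members.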

How the data were processed

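The data were log2 expression values of 6 Affymetrix rat genome arrays, 3 control and 3 CNT cultures, which the authors made with the RMA algorithm and deposited (version not given in the sources used here). The labels name TRIzol and the RNeasy kit, the methods another RNA kit. The values were not normalized again. Of 31099 probe sets, 20826 named 1 gene and were used. Left out were 436 that named several genes, 9780 that named none and 57 controls. Each gene kept its brightest probe set on average. Microarray values hold no read depth, and it is the number of arrays that limits precision. With 3 arrays against 3, a two-sided exact permutation test of 1 gene cannot go below 0.1.

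The substrates were compared in limma 3.58.1 (lmFit, eBayes; R 4.3.3) over all 14217 genes, with Benjamini-Hochberg adjustment and no pairing, and the method was tested on simulated data. The contrast that chose the members was not tested. The members, the gene lists and the groups were chosen with earlier results of these data known. The genes named are the 20 members with the most negative difference, members and most abundant other genes of lists with 3 or more members, those next to the threshold, those with the most extreme CNT minus control difference or control 1 value, and members with a probe set above 0; others were named after their values were seen. Promoter sequence came from RefSeq (GRCr8). Alternatives were another normalization, averaging over probe sets, a filter on dim genes, other variance models, a replicate block, and leaving out arrays.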

Additional observations from a re-analysis of the deposited data

How the results depend on the processing

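The number of the 150 members chosen again was 145 after quantile normalization, 149 after median centring, 147 after cyclic loess, 118 with probe sets averaged per gene, 133 without the dimmest 30% of genes, 129 with control 1 added to the higher arrays, and from 115 (without CNT 3) to 128 (without CNT 1) with 1 array left out of the choice. Oligodendrocyte-list members numbered from 17 to 21 in these settings. Control 1 lay above both replicate-3 cultures in 128 to 134 members under the normalizations and the mean of probe sets.

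Of the 150 members, 6 had CNT higher at an unadjusted limma p under 0.05 with the replicate block, as had 3.5% of all genes. With array weights 3 did (3.74% of all genes), and without both replicate-3 cultures 12 (5.45%). With 1 array left out the number ran from 0 to 16. The 16 arose without CNT 3 (3.62% of all genes) and 2 without control 2 (1.37%). The choice made CNT 3 low in every member, so leaving it out raises the members' CNT mean. Members with CNT lower numbered 1 with the replicate block (1.26% of all genes) and 1 without both replicate-3 cultures (2.9%). No member had an adjusted p under 0.05 in any setting. The replicate number is not known to pair cultures. The correlation of same-numbered deviations from the group means was -0.13, 0.36 and 0.51 for replicates 1, 2 and 3, and control 2 went closest with CNT 1 (0.68).

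Left out in turn, single arrays moved the CNT minus control difference of Gosr1 from 0.40 to 1.51, of Mal from 0.27 to 1.5, of Efhd1 from 0.42 to 1.36, of Gpr84 from 0.25 to 1.42, of Cox5a from 0.43 to 1.11 and of Aldh1a1 from -0.98 to -0.15 log2. The lowest of these came without CNT 1 (Gosr1, Mal, Efhd1, Cox5a), CNT 2 (Gpr84) or control 3 (Aldh1a1), the highest without control 2 (Gosr1) or CNT 3 (the others), and Gosr1 gave 0.40 with probe sets averaged. They also moved the CNT minus control difference of Asic2 from -0.70 to 0.11, of Anp32a from -0.74 to 0.24, of Cntn1 from -0.69 to 0.19 and of Gpr37l1 from -0.60 to 0.10 log2. The sign turned without control 2 (Asic2, Anp32a) or without CNT 3 (Anp32a, Cntn1, Gpr37l1). The members' median CNT minus control difference ran from -0.19 without control 3 to 0.59 without CNT 3. The choice made control 3 and CNT 3 low in every member, so a shift of this median when either is left out follows from the choice. No cause of the shifts in single genes was tested. Of the other 41 named members' 610 values, 99 had the other sign.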
